A study of Mus musculus with 21 samples.

Results

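Ko-selective regions were stretches of open chromatin listed in Gata4 ko endothelial cells and absent from every Gata4 het list. They were chosen by a rule on peak lists from ATAC-seq, an assay in which a transposase cuts accessible DNA. Peaks of the 3 het and 3 ko libraries that shared 1 bp were merged into 128146 regions. A region was kept when at least 2 of the 3 ko lists and 0 of the 3 het lists had a peak in it, which left 2200 regions, 1.72% of all merged regions. The mirrored rule gave 3905 het-selective regions, 3.05% of the merged regions. Because the rule used the het and ko lists, these counts and the peak strengths in those lists are a description and were not tested.

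The study profiled ventricles of mouse embryos at E12.5, a midgestation stage of chamber and valve growth. Cells of the het and ko libraries were labelled E12_G4het and E12_G4ko. They carried the Cdh5(Pac)-CreERT2 driver, active in endothelial cells after tamoxifen, and the Rosa26mTmG reporter, and 20000 GFP-positive cells were sorted for each library. Pregnant mice of both groups received 1 mg of tamoxifen at embryonic day 9.5, so the het cells also met tamoxifen and Cre. The labels name Gata4 mutant and control lineages and do not give the alleles, and how far Gata4 was lost in the sorted cells was not measured in these files. Reference endothelial libraries came from Rosa26fsTrap;Tie2Cre ventricles, for which the labels name no Gata4 mutation: 2 ATAC libraries of 40000 sorted cells (EC ATAC) and 2 RNA libraries of 60000 sorted cells (EC). Tie2-Cre also marks blood cells. RNA of cardiomyocytes (CM) had 3 libraries. GATA4 occupancy came from bioChIP, in which a tagged GATA4 is biotinylated only in Cre-active cells and pulled down with streptavidin, with 3 Tie2-Cre and 3 Tnnt2-Cre libraries of 15 to 20 pooled ventricles each. Tnnt2-Cre is active in cardiomyocytes. No RNA library came from het or ko embryos, so the RNA values below are levels in the 2 lineages and not responses to the deletion. Any difference in preparation or run between EC and CM RNA libraries coincides with lineage, and the 2 cannot be told apart here. For these sorted and pooled samples no label ties a replicate to a litter of its own, and the spread that each p-value rests on may therefore be technical. RNA libraries held 27660790 and 21682362 counted reads in EC and 42948614 to 48393473 in CM, and the read depth behind the peak lists is unknown.

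GATA4 is a zinc-finger transcription factor that binds GATA motifs and, in the heart, acts in cardiomyocytes, endocardium and the cushions that form the valves. Endothelial and endocardial cells keep accessible chromatin at the enhancers of Notch, VEGF, BMP and FGF signalling genes and at their lineage factors. Peak calling lists only sites whose signal passes a threshold, so a region missing from a list may hold signal just under it.

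RefSeq promoter windows (GRCm38.p6, the patch of the mm10 build used by the files; 250 bases before and 50 after a start) allowed sequence to be read at 68 windows of 64 gene symbols that 63 ko-selective regions overlapped. The 250 bases before the start are shown for 5 of these promoters, 5′ to 3′ in the direction of the gene, with each GATAA (or TTATC on the other strand) in capitals. Gata3 was shown as the only GATA-family promoter, Zbed3 and Alpk3 for their GATA4 peaks, and Clec1b and Nr5a2 for the most GATAA matches in the 300-base window.
Gata3: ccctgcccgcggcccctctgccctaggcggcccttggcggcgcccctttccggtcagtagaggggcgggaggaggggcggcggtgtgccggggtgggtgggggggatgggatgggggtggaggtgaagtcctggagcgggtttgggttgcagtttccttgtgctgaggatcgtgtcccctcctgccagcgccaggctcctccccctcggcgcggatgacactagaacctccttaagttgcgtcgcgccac
Zbed3: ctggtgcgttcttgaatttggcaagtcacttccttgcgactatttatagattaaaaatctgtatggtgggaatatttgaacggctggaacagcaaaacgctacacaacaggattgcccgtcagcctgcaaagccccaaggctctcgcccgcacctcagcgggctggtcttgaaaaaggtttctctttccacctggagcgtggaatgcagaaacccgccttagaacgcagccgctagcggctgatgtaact
Alpk3: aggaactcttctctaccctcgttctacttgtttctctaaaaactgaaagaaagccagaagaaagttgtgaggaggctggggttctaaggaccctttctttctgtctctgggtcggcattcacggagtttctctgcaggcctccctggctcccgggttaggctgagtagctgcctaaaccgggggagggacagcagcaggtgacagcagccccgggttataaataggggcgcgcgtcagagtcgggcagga
Clec1b: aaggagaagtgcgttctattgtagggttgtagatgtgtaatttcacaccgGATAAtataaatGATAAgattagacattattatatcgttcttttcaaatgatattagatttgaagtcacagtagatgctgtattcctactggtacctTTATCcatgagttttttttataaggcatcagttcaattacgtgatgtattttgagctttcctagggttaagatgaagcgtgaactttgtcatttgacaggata
Nr5a2: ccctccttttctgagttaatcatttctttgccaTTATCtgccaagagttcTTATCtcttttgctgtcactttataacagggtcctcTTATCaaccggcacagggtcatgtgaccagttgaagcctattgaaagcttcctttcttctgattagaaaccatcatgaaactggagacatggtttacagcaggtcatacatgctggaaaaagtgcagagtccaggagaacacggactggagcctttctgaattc

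The windows shown are chr2:9878601-9878850 on the minus strand for Gata3, chr13:95324575-95324824 on the plus strand for Zbed3 and chr7:81057350-81057599 on the plus strand for Alpk3. Clec1b lies at chr6:129397047-129397296 on the plus strand and Nr5a2 at chr1:136960449-136960698 on the minus strand. Of the 250 bases, the ko-selective region covered 250 at Gata3, 66 at Zbed3, 101 at Alpk3, 82 at Clec1b and 221 at Nr5a2. The printed bases held 3 matches at Clec1b, 3 at Nr5a2 and 0 at Gata3, Zbed3 and Alpk3. Of those, the ko-selective region covered 0 of the 3 at Clec1b and 3 of the 3 at Nr5a2. With the bases after the start included, the Clec1b window held 4 matches. The match that reached past the printed bases lay inside the Clec1b ko-selective region. Among the 68 windows, 14 (20.6%) held GATAA on either strand, beside 25.4% of all 32851 RefSeq windows of the same length. The AP-1 word TGANTCA was in 10 windows (14.7%, all windows 7.81%), the ETS word CCGGAA in 5 (7.35%, all windows 14.9%) and the E-box CACGTG in 1 (1.47%, all windows 7.15%). Each word was searched on both strands and independently of the others, so matches to different words may share bases. These are shares of letters in a promoter window and were not tested. Windows met by other merged regions were not counted, so whether these gaps are particular to ko-selective regions is unknown.

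Peaks at these 5 promoters were modest in the ko lists. At Gata3, which encodes another GATA-family factor, the deposited fold over background was 2.83 in ko replicate 3 and 3.37 in ko replicate 4, with no peak in ko replicate 2, while the EC ATAC peak there reached 18.2 and 17.5. That EC ATAC peak also ran into a neighbouring region shared by het and ko. Zbed3, a zinc-finger BED domain protein, had ko folds of 2.51 and 3.03 in replicates 3 and 4 and the only Tie2-Cre GATA4 peak among these promoters, with a fold of 5.83 in Tie2-Cre replicate 2. At Alpk3, an alpha-kinase gene linked to heart muscle disease, ko folds were 2.83 and 2.88 in replicates 2 and 3. All 3 Tnnt2-Cre GATA4 libraries had a peak there, at 8.63, 5.11 and 8.64, and no Tie2-Cre library did. Alpk3 RNA was 4.998 and 5.841 CPM in EC and 430.8, 478.8 and 469.9 CPM in CM, where CPM scales each count to its library size. Clec1b, which encodes the podoplanin receptor of platelets, had a peak in all 3 ko lists, at 3.04, 3.68 and 3.43. At Nr5a2, an orphan nuclear receptor gene, neither EC ATAC list had a peak and ko folds were 3.18 and 3.49 in replicates 2 and 4.

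Most ko-selective regions rested on the same pair of libraries. A peak in all 3 ko lists was found in 184 regions and in exactly 2 lists in 2016. Of the latter, 1481 (73.5%) came from ko replicates 2 and 3, 282 (14.0%) from replicates 2 and 4 and 253 from replicates 3 and 4. The lists of replicates 2, 3 and 4 held 87496, 79263 and 55733 peaks in ko and 90326, 82612 and 67201 peaks in het, so replicate 4 was the shortest in both genotypes. Just outside the rule lay 17244 regions with a peak in 1 ko list and no het list, and 5107 regions with at least 2 ko lists and 1 het list. Leaving out 1 library moved the count from 2200 to 4715 without het replicate 2, 4288 without het replicate 3, 444 without ko replicate 2 and 476 without ko replicate 3. With all 6 lists cut to an equal length the numbers of ko-selective and het-selective regions were nearly the same, with a ratio of 0.973 in place of 0.563. Such a cut also drops weak het peaks, so the regions it gives need not be among the 2200.

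Ko-selective regions were weak peaks in every ko list. Their median fold was 3.57 in ko replicate 2, 3.81 in replicate 3 and 3.48 in replicate 4, below the medians of the whole lists (4.76, 5.03 and 4.61). Regions shared by het and ko had medians of 5.96, 5.93 and 5.07. Ranked within its list by fold, the median ko-selective peak stood at percentile 22.0, 24.0 and 18.2. Het-selective regions stood about as low in het replicates 2, 3 and 4, with median folds of 3.59, 3.76 and 3.48. Their median percentiles were 22.6, 20.9 and 18.4, so low fold was not particular to ko-selective regions. A −log10 q of at least 5 was reached by 10.2%, 9.91% and 6.95% of the ko-selective peaks in replicates 2, 3 and 4, beside 54.6%, 57.8% and 57.3% of each whole list. Among het-selective peaks in het replicates 2, 3 and 4 it was reached by 12.2%, 20.6% and 3.62%. The highest fold of any ko-selective peak was 8.52. The regions were also narrow, with a median width of 332 bp against 705 bp for shared regions and 340 bp for het-selective regions. Regions with a single ko list were weaker still, with median folds of 3.31, 3.39 and 3.17.

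**Figure D1:**
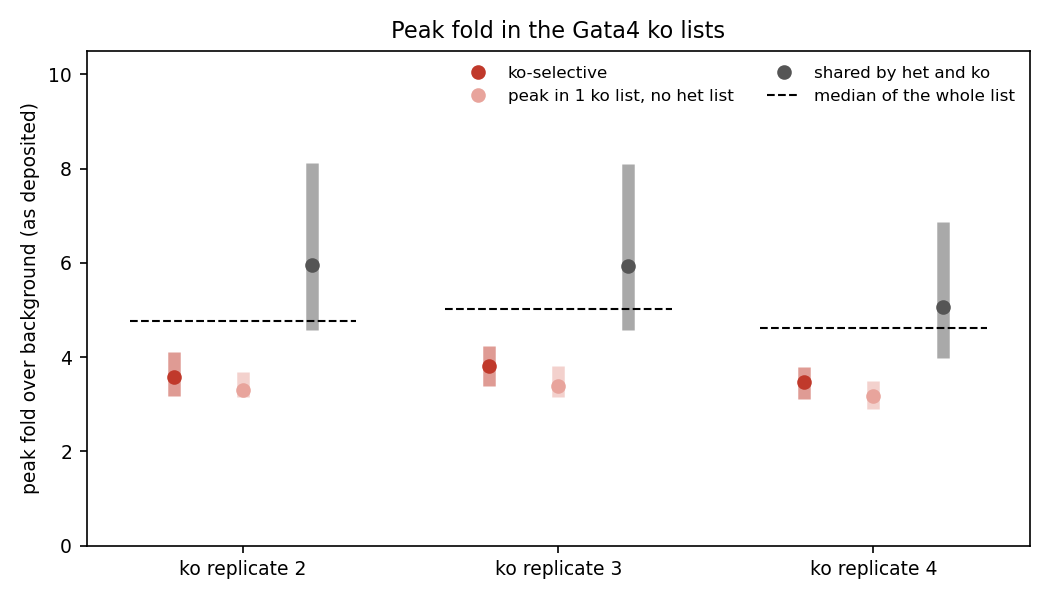
Deposited peak fold over background (y axis, linear) in each of the 3 Gata4 ko lists (x axis) for ko-selective regions, regions with a peak in 1 ko list and no het list, and regions shared by het and ko. Points are medians, bars run from the first to the third quartile and dashed lines are whole-list medians; ko-selective medians of 3.57, 3.81 and 3.48 lie under the dashed lines in all 3 lists.

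The endothelial identity of the sorted cells was checked at transcription starts. A peak within 1 kb of the start was found at 6 of 6 endothelial markers (Cdh5, Pecam1, Tek, Kdr, Eng and Tie1) and at 4 of 4 endocardial markers in every het, ko and EC ATAC list. Cardiomyocyte markers had a peak at 1 to 3 of 6 starts, with none at Myh6, Nppa and Ttn in any list, and blood markers at 1 or 2 of 5. Markers of epicardium, fibroblasts and mural cells had start peaks at 5 or 6 of 6 in all of these lists, and what such cells contributed was not tested. Summed RNA of that last list was 1390 CPM in EC and 390 CPM in CM, and summed cardiomyocyte marker RNA was 364 CPM in EC and 77900 CPM in CM. Of 13 merged regions in and around Gata4, 3 intronic ones had a peak in 2 of 3 het lists and 0 of 3 ko lists. Over all merged regions, 3.05% were het-selective. The regions at chr14:63195306-63195516 and chr14:63225482-63225710 went the other way, with a peak in 1 ko list and no het list. The region over the Gata4 start had one in all 6, and open chromatin there does not measure the deletion.

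Of the 2200 ko-selective regions, 1614 had a peak in at least 1 of the 2 Tie2-Cre EC ATAC lists, 73.4% of them, and so were also listed as open in endothelial cells outside this mutant series. Both lists had a peak in 1177 (53.5%), 1 list in 437 (19.9%) and neither in 586 (26.6%). All merged regions had 67.4%, 9.53% and 23.0% in the same order, so the ko-selective regions were not above that background. By library, the share was 57.7% (exact 95% interval 55.6 to 59.8) in EC ATAC replicate 2 and 69.1% (67.2 to 71.1) in replicate 3, whose lists held 114599 and 130708 peaks. Het-selective regions had 61.9% and 73.1%, regions shared by het and ko 96.9% and 98.4%, and all merged regions 69.4% and 75.0%. These EC ATAC lists were not used by the rule, and with 2 libraries no test over samples was made. Intervals cover counting error only.

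Support was higher for regions held by more ko lists. In EC ATAC replicates 2 and 3 it was 31.0% and 38.9% for regions with 1 ko list, 55.6% and 67.5% with 2 and 81.0% and 87.0% with 3. It did not follow peak fold in the same way: in 4 classes of ko-selective regions from the weakest to the strongest the share in replicate 2 was 62.3%, 52.5%, 60.6% and 56.7%. Within the EC ATAC lists the ko-selective regions were again in the lower part, at a median percentile of 36.9 and 41.3, against 75.5 and 77.8 for shared regions. In 136 of the 1614 supported regions (8.43%) the EC ATAC peak also reached a region shared by het and ko. In those the median EC ATAC fold was 9.28 in replicate 2 and 9.13 in replicate 3, against 3.57 and 3.47 in the others.

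**Figure D2:**
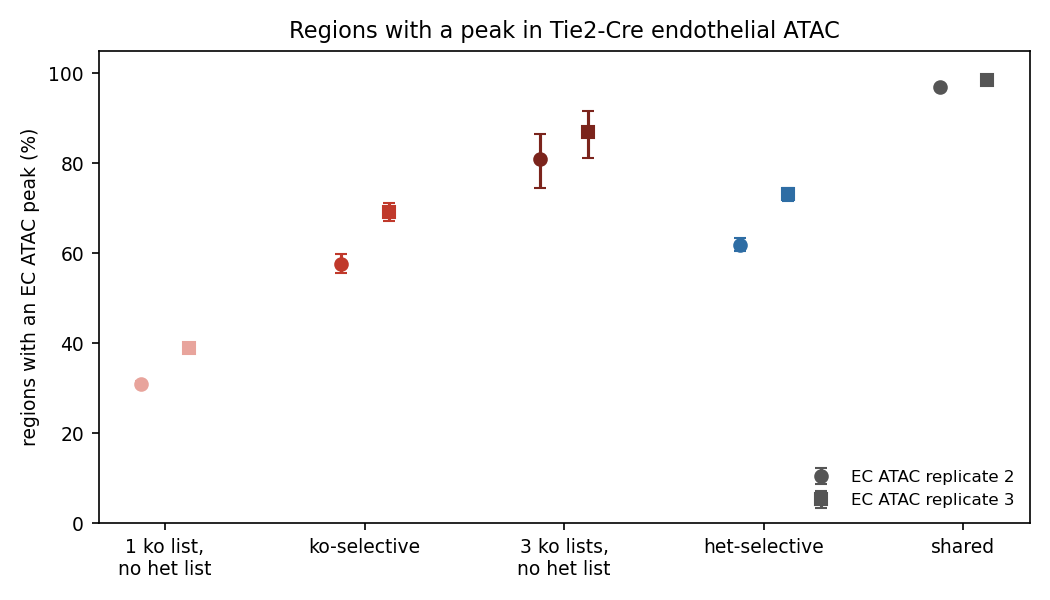
Share of regions (y axis, percent) with a peak in each of 2 Tie2-Cre EC ATAC lists, for 5 classes of merged het and ko regions; bars are exact 95% binomial intervals and cover counting error only. The ko-selective regions lie at 57.7% and 69.1%, between regions with 1 ko list and those with 3, and far under the shared regions at 96.9% and 98.4%.

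GATA4 peaks were rare in ko-selective regions. In Tie2-Cre replicates 1, 2 and 3 a GATA4 peak overlapped 110 (5.0%), 6 (0.273%) and 158 (7.18%) of the 2200 regions. In Tnnt2-Cre replicates 1, 2 and 3 it was 112 (5.09%), 22 (1.0%) and 164 (7.45%). All merged regions had 12.2%, 2.01% and 17.2% in Tie2-Cre and 11.2%, 1.95% and 14.5% in Tnnt2-Cre replicates 1 to 3. The second library was low in both lineages, where the deposited lists held 2734 and 3603 peaks against 17682 to 30447 in the other 4 libraries. The mean share was 4.15% ± 3.53 (SD, n = 3) in Tie2-Cre and 4.52% ± 3.27 (SD, n = 3) in Tnnt2-Cre libraries. The difference of -0.364 percentage points was smaller than the spread between libraries (exact permutation test, two-sided, p = 0.7; 3 libraries against 3 cannot go below 0.1). Its sign changed under 11 alternatives, with p between 0.8 and 1.0. With all 6 GATA4 lists cut to the length of the shortest, the means were 0.318% in Tie2-Cre and 0.788% in Tnnt2-Cre libraries, and the 2 lineages did not overlap (a difference of -0.47 points, exact permutation p = 0.1, the smallest possible). These are small shares of the 2200 regions. The 2 lineages were not compared over all merged regions at that length, so whether this gap is particular to ko-selective regions is unknown.

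The same libraries met regions shared by het and ko far more often, at 21.8%, 3.97% and 30.2% in Tie2-Cre and 18.1%, 3.0% and 23.7% in Tnnt2-Cre replicates 1 to 3. Ko-selective regions were lower in 6 of 6 GATA4 libraries, with a mean share of 4.33% ± 3.05 against 16.8% ± 11 (SD, n = 6; exact sign-flip permutation test, two-sided, p = 0.0312, the smallest that 64 sign patterns can give). With GATA4 lists of equal length the means were 0.553% and 3.29%, a difference of -2.74 points (exact p = 0.0312). Both p-values cover the spread over GATA4 libraries and not over the ATAC libraries that chose the regions. Shared regions are also wider and stronger, and the part of width and strength in this difference was not tested. Regions with 1 ko list and no het list were lower still than ko-selective ones. They had 2.22%, 0.226% and 3.44% in Tie2-Cre and 3.67%, 0.707% and 4.64% in Tnnt2-Cre replicates 1 to 3.

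Against het-selective regions the gap was small. Het-selective shares were 6.09%, 0.538% and 8.99% in Tie2-Cre and 7.5%, 1.74% and 9.19% in Tnnt2-Cre replicates 1 to 3. Ko-selective regions were lower in 6 of 6 libraries, by 1.34 percentage points on average (4.33% ± 3.05 against 5.68% ± 3.71, SD, n = 6; exact sign-flip permutation test, two-sided, p = 0.0312). This p covers the spread over GATA4 libraries and not over the ATAC libraries that chose the regions. The direction turned without het replicate 2, where the ko-selective share was higher by 0.758 points (exact p = 0.0312), and with all 3 lists required, where it was higher by 0.141 points (exact p = 0.969). With GATA4 lists of equal length the ko-selective share was lower by 0.382 points (0.553% against 0.935%, exact p = 0.0312). Without ko replicate 2 the exact p was 0.0625 and without ko replicate 3 it was 0.125. The direction thus depended on which ATAC libraries chose the regions.

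**Figure D3:**
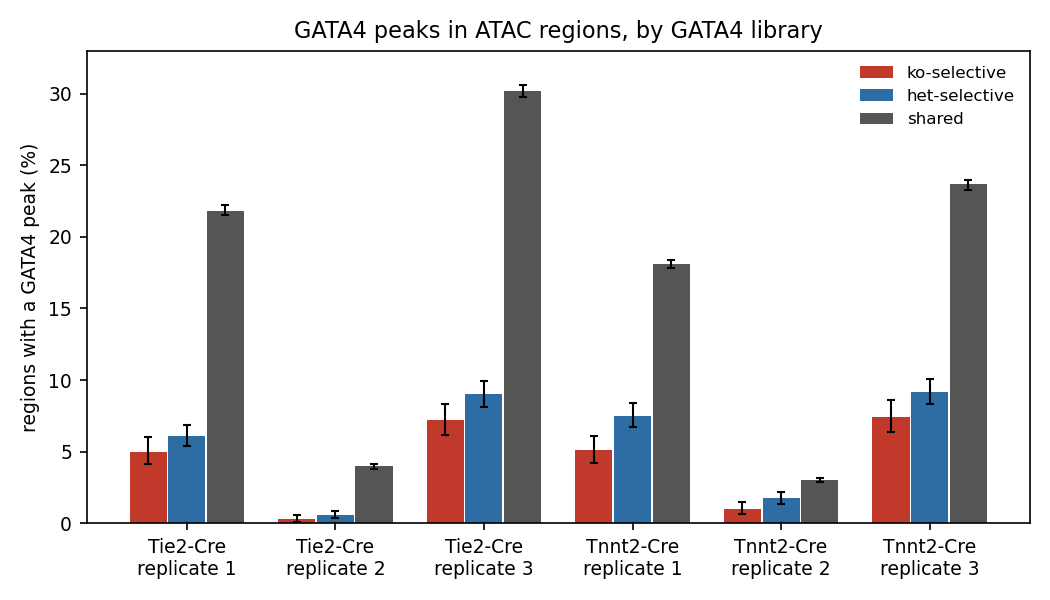
Share of regions (y axis, percent) with a GATA4 peak in each of 6 bioChIP libraries (x axis) for ko-selective, het-selective and shared regions; bars start at 0 and error bars are exact 95% binomial intervals. Ko-selective shares lie between 0.273% and 7.45%, and the shared regions are the highest class in all 6 libraries.

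In all, 187 ko-selective regions (8.5%) had a GATA4 peak in at least 1 Tie2-Cre library and 177 (8.05%) in at least 1 Tnnt2-Cre library. The same shares of all merged regions were higher, at 19.2% and 16.2%. Both lineages had a GATA4 peak in 66 regions (3.0%), Tie2-Cre alone in 121 (5.5%), Tnnt2-Cre alone in 111 (5.05%), and 1902 (86.5%) had none. All merged regions had 9.63%, 9.56%, 6.55% and 74.3% in that order. Among the 586 regions with no EC ATAC peak, 5.97% had a Tie2-Cre peak and 3.07% a Tnnt2-Cre peak, and among the 1177 with both EC ATAC peaks 10.6% and 11.7%. Where a GATA4 peak was present it was of usual height for its list: in Tie2-Cre replicates 1, 2 and 3 the median fold was 5.27, 5.69 and 5.0, against list medians of 5.35, 5.88 and 5.23. In Tnnt2-Cre replicates 1, 2 and 3 it was 5.28, 6.01 and 5.19, against 5.11, 5.76 and 5.18. At least 2 Tie2-Cre libraries had a peak in 83 regions, of which 62 also had both EC ATAC peaks.

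All 3 Tie2-Cre libraries had a GATA4 peak at 4 ko-selective regions, of which 3 are described here. An intronic region of the polarity gene Pard3b (chr1:61874769-61875064) had Tie2-Cre folds of 7.35, 7.18 and 8.04, no Tnnt2-Cre peak and no EC ATAC peak. Its ko peaks were among the faintest, at 2.38 and 3.49 with −log10 q of 0.511 and 2.5 in replicates 2 and 4. The region at chr15:88174389-88174658, with B230214G05Rik as the nearest gene 140216 bp away, had GATA4 peaks in all 6 libraries at folds of 6.46 to 10.2 and none in EC ATAC. A region at chr9:3030100-3030323 near Mir101c also had GATA4 peaks in all 6 libraries, at 3.43 to 5.14, and a very high EC ATAC fold of 36.2 and 31.8. Each of its GATA4 folds was below the median of its list. No mask for repeats or artefact signal was applied to the lists here, and whether these peaks are such signal was not tested. That region and Gata3 are both among the 4 named regions whose EC ATAC peak reaches a shared region. Also named by the same ranking was a region at chr14:102384162-102384562, with Mir5130 as the nearest gene, where Tie2-Cre replicates 1 and 3 had folds of 7.47 and 7.17 and ko replicates 2 and 3 had 5.16 and 5.08.

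Ko-selective regions lay mostly away from promoters. Within 1 kb of a transcription start there were 131 (5.95%), in exons 125 (5.68%), in introns 947 (43.0%) and between genes 997 (45.3%). All merged regions had 13.2%, 6.76%, 38.2% and 41.9%, and shared regions 23.3% within 1 kb of a start. Het-selective regions stood close to the ko-selective ones, with 4.99% within 1 kb of a start, 42.4% in introns and 45.7% between genes. The median distance to the nearest start was 30886.5 bp, against 18346.5 bp for shared regions. A region shared by het and ko was a median of 7753.5 bp away, and 285 (13.0%) ko-selective regions had one within 1 kb. No chromosome held them apart: among chromosomes with over 100 merged regions, the ko-selective share ran from 1.36% on chromosome 2 to 2.04% on chromosome 14.

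**Figure D4:**
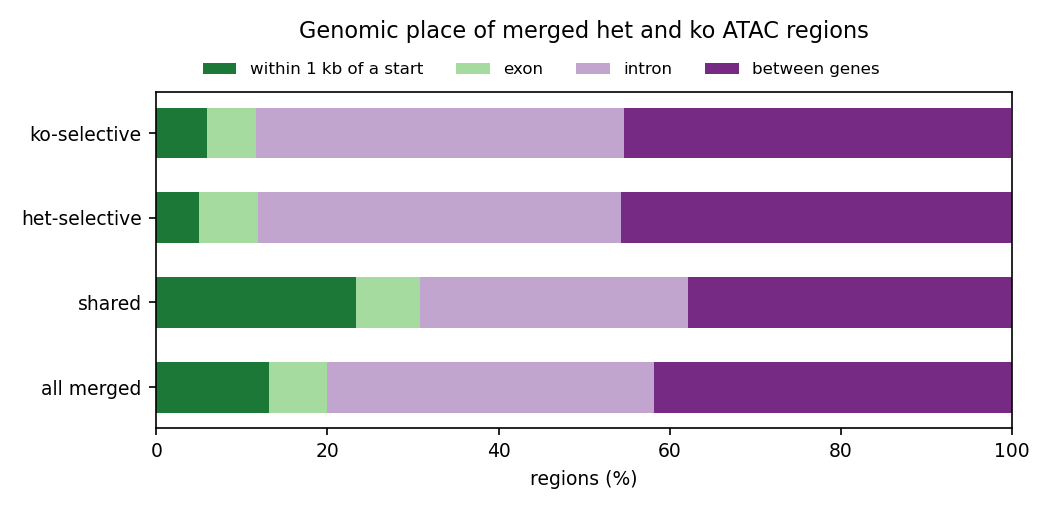
Share of regions (x axis, percent of the class) within 1 kb of a transcription start, in exons, in introns and between genes, for ko-selective, het-selective, shared and all merged regions. The ko-selective bar has 5.95% within 1 kb of a start, close to the 4.99% of het-selective regions and well under the 23.3% of shared regions.

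The strongest of the 184 regions in all 3 ko lists, ranked by the lowest of their 3 percentiles, lay in introns, in an exon or between genes. A 798 bp region in an intron of Rpn2 (chr2:157308368-157309165), with Mroh8 as the nearest start, had ko folds of 5.56, 6.82 and 4.44 and EC ATAC folds of 5.71 and 7.3. A region in an intron of Gon4l near Msto1 (chr3:88880591-88880884) had ko folds of 4.76, 5.08 and 4.44 and EC ATAC folds of 10.3 and 10.2. An exonic region of Asun (chr6:146550498-146550866) had 8.34, 4.66 and 4.44 in ko and 4.49 and 4.75 in EC ATAC. In each of these the 3 ko values were above the usual fold of a ko-selective peak, and both EC ATAC lists held the region. No GATA4 library had a peak in any of the 3. The other 7 were nearest to Ankrd1, Zfp64, Hecw2, Palld, Adam9, Tmcc3 and Dlgap2. Adam9, a membrane metalloprotease, was the only one of the 10 with Tie2-Cre GATA4 peaks, at 5.28 and 4.47 in replicates 1 and 3, and Palld, an actin-associated protein, had a Tnnt2-Cre peak of 4.34 in replicate 3.

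The strongest ko-selective regions within 1 kb of a start were at Rgag1, Gm17455, Rgs8, Cacna1i and Zfhx4. At Rgag1 the ko folds were 5.08 and 5.39 in replicates 3 and 4, and at Rgs8, a regulator of G-protein signalling, 6.12 and 4.2 in replicates 2 and 3. None of the 5 had a GATA4 peak. Their RNA was low: Rgag1, Gm17455 and Cacna1i were under the count filter, Rgs8 had 0.213 and 0.362 CPM in EC, and Zfhx4 had 7.34 and 5.75 CPM. Over all 131 genes with a ko-selective region within 1 kb of the start, 75 passed the count filter, with a median of 5.42 CPM in EC against 18.1 CPM over all genes tested.

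For nearest genes, 1383 regions (62.9%) had a start within 50 kb, which gave 1309 genes. A single region was found at 1237 genes, 2 regions at 70 and 3 at Ostf1 and Tgfbr1. Of the 1309 genes, 918 passed the count filter in the comparison of EC and CM RNA (edgeR's quasi-likelihood test, Benjamini-Hochberg adjusted p under 0.05). EC RNA was higher at 409 (44.6%) of them and CM RNA at 337 (36.7%), against 37.5% and 40.2% over all 14851 genes tested. The median log2 difference EC minus CM was 0.11, against -0.06 over all genes. Nearest genes of het-selective regions had 41.1% and 37.1%, and those of all merged regions 38.4% and 39.9%.

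Genes nearest to ko-selective regions with both EC ATAC peaks had 45.4% higher in EC and 35.2% higher in CM, out of 546 tested. Genes nearest to regions with no EC ATAC peak had 39.0% and 41.7%, out of 228 tested, close to the background. A ko-selective region with a Tie2-Cre GATA4 peak had 76 tested nearest genes, with 48.7% higher in EC and 35.5% higher in CM. Genes are not replicates, so these shares are described beside the background and were not tested against it. With DESeq2 the share of nearest genes higher in EC was 38.4%, beside 32.0% over the 17013 genes it tested, and without a count filter 35.3%, beside 28.6% over 19645 genes.

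**Figure D5:**
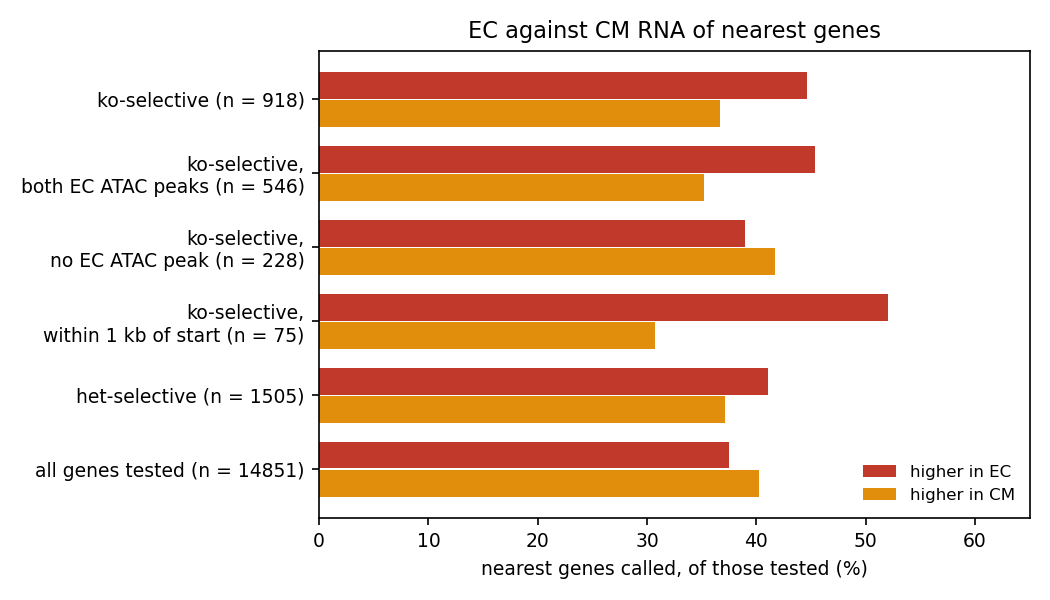
Share of tested nearest genes (x axis, percent) higher in EC RNA or higher in CM RNA at adjusted p under 0.05, with n the number of genes tested in each set. The ko-selective set has 44.6% higher in EC and 36.7% higher in CM, and the set of all genes 37.5% and 40.2%.

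Nearest genes were also read through 21 lists of pathways, lineages and cell types. Over all genes, 1.63% of the merged regions with a start within 50 kb were ko-selective and 2.83% het-selective. Ko-selective regions were fewer than het-selective ones in 14 lists, equal in 4 and more in 3, and their share was above 1.63% in 12. Among GATA factors and cofactors, 2 of 12 genes had a ko-selective region, Gata3 and Gata5, which is 2.3% of 87 merged regions, beside 3.45% het-selective. Gata3 RNA was 30.1 and 24.4 CPM in EC and 0.645, 0.730 and 0.539 CPM in CM, with no overlap, a log2 difference of 5.41 ± 0.18 (SE) and an adjusted p of 6.108e-10 (edgeR). Gata5, a GATA factor of endocardium, had a region 16141 bp upstream of its start (chr2:180350820-180351033) with ko folds of 3.93 and 3.96 in replicates 2 and 3 and EC ATAC folds of 4.79 and 5.02. Gata5 RNA was 69.6 and 68.4 CPM in EC and 9.14, 9.95 and 8.37 CPM in CM. Neither region had a GATA4 peak.

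Genes of endothelial identity had 4 ko-selective regions, 2.08% of the 192 merged regions nearest to them, beside 3.12% het-selective and 1.63% ko-selective over all genes. The region at Flt1, the VEGF receptor 1 gene, lies 35330 bp upstream (chr5:147761318-147761546) and was in all 3 ko lists, at 4.69, 2.92 and 4.22. It had GATA4 peaks of 5.82 and 6.88 in Tie2-Cre replicates 1 and 3 and of 5.99 and 5.11 in Tnnt2-Cre replicates 1 and 3. Flt1 was the only one of the 4 genes whose region had a GATA4 peak. The others were Kdr, the VEGF receptor 2 gene, the adhesion gene Icam2 and the cadherin gene Cdh5. The Cdh5 region, 14679 bp upstream, was faint, with ko folds of 2.29 and 2.77 in replicates 2 and 4, and had no EC ATAC peak. All 4 genes were higher in EC RNA, with Kdr at 882.4 and 882.1 CPM in EC and 136.1, 149.2 and 132.8 CPM in CM. The VEGF and angiopoietin list of 15 genes had 4 ko-selective regions, 3.08% of 130 merged regions, beside 3.85% het-selective. Flt1 and Kdr, already counted above, are among them. The others were at the ligand genes Vegfa, higher in CM (log2 difference -2.88 ± 0.11 SE), and Figf, which encodes VEGF-D, higher in EC (2.54 ± 0.22 SE).

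Notch genes had 6 ko-selective regions at 4 of 18 genes, 4.14% of the 145 merged regions nearest to them, beside 3.45% het-selective. These were Nrarp, a feedback inhibitor of Notch (2 regions), the receptor gene Notch2 (2 regions), the target Hes1 and Dlk1, an atypical ligand. All 6 regions had a peak in both EC ATAC lists and none had a Tie2-Cre GATA4 peak, while 1 Notch2 region had a Tnnt2-Cre peak of 4.5 in replicate 3. The stronger Nrarp region (chr2:25143841-25144288, 36470 bp upstream) had ko folds of 5.49 and 3.92 in replicates 2 and 3, and its other region (chr2:25168007-25168292) 3.69 and 3.61. RNA of all 4 genes was higher in EC: Nrarp had 36.7 and 38.4 CPM in EC against 6.79, 6.59 and 9.94 CPM in CM. Dlk1 had 112.9 and 114.9 against 3.31, 3.98 and 5.52 CPM.

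The FGF and ERK feedback list had the highest share of the 21 lists, 7 regions at 7 of 17 genes, 4.79% of 146 merged regions, beside 2.74% het-selective. Its members were the ligands Fgf2 and Fgf10, the intracellular Fgf12, and 4 inhibitors of the pathway: the ERK phosphatase Dusp6 and the Ras-ERK inhibitors Spred1, Spred2 and Spry4. At Dusp6 an 874 bp region 11774 bp upstream (chr10:99250584-99251457) had ko folds of 3.97 and 6.36 in replicates 2 and 3. Of the 7, 2 had Tie2-Cre GATA4 peaks: Spred1, at 3.6 and 4.23 in replicates 1 and 3, and Fgf10, at 6.22 and 4.73. Fgf10 also had Tnnt2-Cre peaks at 6.29 and 9.04. RNA was higher in EC at 4 genes (Dusp6, Fgf10, Spred2 and Spry4), higher in CM at Fgf2 and Spred1 and not called at Fgf12. Dusp6 had 120.5 and 121.3 CPM in EC and 90.5, 85.4 and 78.4 CPM in CM. These are small counts of regions, and the lists were not tested against each other.

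BMP and TGF-beta genes had 6 ko-selective regions (2.45% of 245 merged regions) and 11 het-selective ones (4.49%). Of the 6, 3 were nearest to Tgfbr1, the type I TGF-beta receptor gene. They lie at chr4:47313973-47314289, chr4:47346335-47346702 and chr4:47382493-47382763, and ko folds in replicates 2 and 3 were 4.12 and 3.69, 5.16 and 3.78, and 4.76 and 3.81. Ko replicate 4 had a peak in none of the 3, and neither lineage had a GATA4 peak there. Tgfbr1 RNA did not differ by more than the replicate spread, at 149.3 and 148.1 CPM in EC and 148.5, 144.5 and 132.0 CPM in CM (edgeR adjusted p = 0.4074). Smad3, which carries the TGF-beta signal to the nucleus, had 2 regions and Bmp7, a ligand, 1. The Ostf1 regions were all in its introns, and 2 of the 3 had EC ATAC peaks.

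Wnt genes had 6 regions (2.68% of 224, the same as for het-selective regions) at the co-receptor Lrp5 (2 regions), the receptors Fzd1 and Fzd6, the nuclear factor Lef1 and the feedback gene Axin2. The Lef1 region, 795 bp inside the gene, was in all 3 ko lists at 2.62, 3.32 and 2.69 and had EC ATAC folds of 8.36 and 9.03. Lrp5 had 1 region with a Tie2-Cre GATA4 peak, of 4.17 in replicate 3. RNA was higher in EC at Lrp5, Lef1, Axin2 and Fzd1, and Fzd6 did not pass the threshold (24.1 CPM in EC, 28.5 CPM in CM, edgeR adjusted p = 0.06804). Matrix genes had 4 regions (1.74% of 230, and 1.74% het-selective), each in an intron and each with both EC ATAC peaks, at Col5a1, Hspg2, Lama4 and Lamc1. Among endothelial transcription factors Fli1, Foxp1 and Mef2c had 1 each, 1.41% of 213 merged regions, beside 2.35% het-selective.

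Genes of cardiomyocyte transcription factors had 5 regions, at Ankrd1, Irx4, Mef2c, Myocd and Tbx5. That is 3.09% of 162 merged regions, beside 8 het-selective regions (4.94%) at the same list. All 5 genes were higher in CM RNA and all 5 regions had an EC ATAC peak in at least 1 library, while none had a Tie2-Cre GATA4 peak. The region 13766 bp upstream of Ankrd1, a muscle ankyrin-repeat gene (chr19:36133610-36134095), was in all 3 ko lists at 4.42, 4.43 and 4.35, with EC ATAC folds of 5.2 and 5.57. Ankrd1 RNA was 23.6 and 23.7 CPM in EC and 1462, 1497 and 1576 CPM in CM. Tbx5, a T-box factor of the heart, had a 629 bp region 3023 bp upstream (chr5:119831012-119831640) with ko folds of 3.85 and 4.6 in replicates 2 and 3. Start peaks at cardiomyocyte markers numbered 2, 3 and 2 of 6 in het and 2, 2 and 1 of 6 in ko replicates 2 to 4, and the part of cardiomyocytes in these regions was not tested.

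Sarcomere genes had regions at Csrp3, a muscle LIM protein, and Tpm1, a tropomyosin (1.85% of 108 merged regions, and 1.85% het-selective). The Csrp3 region (chr7:48840426-48840926) had Tnnt2-Cre GATA4 peaks at 3.44 and 3.19 in replicates 1 and 3 and ko folds of 4.65 and 5.51, and the Tpm1 region had a Tie2-Cre peak of 4.63 in replicate 3. Ion channel and calcium genes had 2, at Camk2d and Kcnh2 (1.47%, beside 3.68% het-selective). The blood list had 2 (2.3%, beside 3.45% het-selective), at Runx1 and Spi1, both factors of blood development, with Spi1 RNA at 0.709 and 1.04 CPM in EC. The cell cycle list had 1 (0.826%, beside 1.65% het-selective), upstream of the cyclin gene Ccnd1 (chr7:144958517-144958816), with Tie2-Cre GATA4 folds of 5.42 and 6.01 in replicates 1 and 3 and a Tnnt2-Cre fold of 6.02 in replicate 3. Lists with 1 region were endocardial (Tmem100), arterial and venous (Mecom), cushion mesenchyme (Twist1), epicardial and mural (Tcf21), guidance (Sema6a) and immediate early (Egr3). Their ko-selective shares were 0.599%, 0.613%, 0.893%, 0.746%, 0.625% and 0.524% in that order, all below the 1.63% over all genes. Among inflammatory genes the region at Tnfaip3, an inhibitor of NF-kB signalling, had no EC ATAC or GATA4 peak. In 17 of the 21 lists between 1 and 5 regions were counted, so a single region moves a list's share.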

How the data were processed

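Open chromatin, GATA4 bioChIP and RNA were analysed in 19 of 21 samples; the 2 CM ATAC samples were not analysed here. Each ATAC or bioChIP library has its own deposited peak list in mm10 coordinates, with a fold over background (a ratio) and −log10 p and −log10 q as the authors' caller gave them; peak names carry MACS2, per the file contents. MACS2 2.2.4, Bowtie 1.1.1, Bowtie2 2.2.9, STAR 2.7.3a, deepTools 3.3.1 and featureCounts 1.6.3 are named in the submitters' processing notes. RNA was deposited as read counts per gene, counted with featureCounts, per the file headers. Use of a control library in peak calling: not given in the sources used here.

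Lists were merged and compared in Python 3.11.15 (numpy 2.4.6, pandas 2.3.3, scipy 1.17.1), and figures were drawn with matplotlib 3.10.9. Fold served only to describe and rank peaks within a list. Counts were tested across all genes with edgeR 4.0.16 under R 4.3.3 (filterByExpr, then TMM and the quasi-likelihood test at a Benjamini-Hochberg adjusted p of 0.05), with DESeq2 1.42.0 as the alternative. Each region was given to the nearest start up to 50 kb away, where a start is the 5′ end of a gene's first exon in the count table; 144 genes on several chromosomes or strands and 176 symbols with copies far apart were left out. Code was tested on simulated data. The members, the 21 gene lists and the tests were chosen with earlier results of these data known. Named regions were the 10 strongest in 3 ko lists, the 5 strongest at starts, the 5 with most Tie2-Cre GATA4 libraries, the 3 strongest of each list, all at GATA genes and those of genes with 3 regions; other regions of list genes were named after their values were seen. Regions at 2 genes that the rule names are not reported here.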

Additional observations from a re-analysis of the deposited data

How the results depend on the processing

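Leaving out 1 library at a time gave 444 to 4715 ko-selective regions (2200 with all), a ko-selective to het-selective ratio of 0.0522 to 4.39 (0.563), EC ATAC support of 57.7% to 85.6% (73.4%), a share within 1 kb of a start of 4.87% to 9.23% (5.95%), a start within 50 kb at 61.1% to 70.7% (62.9%) and nearest genes higher in EC RNA at 41.6% to 48.2% (44.6%). With a het library left out the mirrored rule asks for 2 of 2 lists, and with a ko library left out the ko rule does, which by construction moves the ratio. For GATA4, the same step gave Tie2-Cre minus Tnnt2-Cre differences of -2.12 to 1.58 percentage points (-0.364), ko-selective minus het-selective differences of -2.07 to 0.758 (-1.34) and ko-selective minus shared differences of -14.6 to -10.4. With 1 GATA4 library left out the smallest possible p is 0.0625, so neither sign-flip comparison can pass 0.05.

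Keeping only peaks of −log10 q of at least 5 in the het and ko lists gave 921 regions. This cut also drops weak het peaks, so these regions are not a subset of the main ko-selective set. In that set only 198, 190 and 50 peaks reached this value in ko replicates 2, 3 and 4. The 921 regions had EC ATAC support of 95.1%, 7.49% within 1 kb of a start and 67.8% with a start within 50 kb. They had 50.5% of nearest genes higher in EC and a Tie2-Cre minus Tnnt2-Cre difference of 2.1 points (exact p = 0.8). Lists of equal length gave a ratio of 0.973, support of 93.8%, 7.41%, 65.9% and a difference of 1.07 (exact p = 0.8). A rule of 3 of 3 libraries left 184 regions, with 91.3%, 7.07%, 67.4%, 48.8%, a lineage difference of 0.362 (exact p = 1.0) and a ko minus het difference of 0.141 (exact p = 0.969). A peak covering 0.5 of its region gave support of 81.1%, 7.93% within 1 kb of a start and a lineage difference of 0.97 (exact p = 0.8). A GATA4 summit inside the region gave 0.0303 (exact p = 1.0). GATA4 lists of equal length gave a lineage difference of -0.47 (exact p = 0.1), a ko minus het difference of -0.382 and a ko minus shared difference of -2.74 (both exact p = 0.0312), since shorter lists meet fewer regions. Other distances gave 3.95% within 500 bp and 8.64% within 2 kb of a start, and 39.0% and 79.7% with a start within 20 kb and 100 kb. The share of nearest genes higher in EC was 38.4% with DESeq2 and 35.3% without a count filter, which test more genes. With both libraries numbered 4 left out, an alternative chosen after seeing the data, 2150 regions had EC ATAC support of 76.3%. Apart from these constructions, the cause of each shift was not tested.

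No label says whether same-numbered het and ko libraries are paired. They correlated at 0.0425, 0.0342 and 0.115 in their deviations from the group means. Each correlated best with its own number, a hint from the data and not from the design. A replicate block in the region rule (a peak in ko and not in het for at least 2 of the 3 numbers, and the opposite for 0) gave 3006 regions, support of 79.0%, a lineage difference of 0.111 (exact p = 1.0), a ko minus het difference of -1.21 (exact p = 0.0312) and a ko minus shared difference of -11.6. A replicate block in the RNA fit gave 42.5%, and same-numbered RNA libraries correlated at -0.0196 and -0.00877. Peak lists carry no read depth, so a region missing from a list cannot be told from one just under its threshold.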
